A study of Mus musculus with 3 samples.

Results

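The genes described here encode the motors that move cargo along microtubules: the kinesins with their light chains and the kinesin-associated protein, the subunits of cytoplasmic dynein, the subunits of dynactin, and 5 genes of dynein regulators and adaptors (Pafah1b1, Nde1, Ndel1, Bicd1 and Bicd2). They were chosen by symbol alone, and 74 of the 41388 genes in the count tables met the rule. Of these, 46 were kinesins, light chains or Kifap3, and 23 were dynein or dynactin genes, one of which (Dynlt1-ps1) is a pseudogene. Kinesins mostly walk towards the plus ends of microtubules, which in axons point away from the cell body, whereas dynein with its cofactor dynactin walks back towards the cell body. A sensory neuron uses the outward route for vesicle precursors, mitochondria and channels, and the return route for signalling endosomes that carry neurotrophin receptors. A separate set of kinesins builds and moves the mitotic spindle of dividing cells and has little part in axonal transport.

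Expression was measured by RNA sequencing in 3 libraries, B, C and D, of dorsal root ganglion (DRG) cells that were sorted by flow cytometry for EGFP. Embryos of 12.5 days post coitum and both sexes on a C57BL/6 background carried EGFP as a reporter of Ret, which encodes a receptor for GDNF and its relatives. The genotype label names a transgene, whereas the series text places EGFP in 1 Ret allele of heterozygotes, so which construct drove the reporter is not settled here. Cells of 340 ganglia from 17 embryos made up library B, those of 300 ganglia from 15 embryos library C, and those of 60 ganglia from 3 embryos library D, all dissected between T11 and S1. All 3 libraries form a single group, with no second genotype, treatment or age, and each embryo carried the reporter.

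The libraries held 18072199 (B), 11666241 (C) and 20966139 (D) counts. Levels are given in TPM, the count per base of gene length scaled to the same sum in every library. All 14 neuron markers and all 10 glial markers were detected in each library, while 0 of 5 endothelial markers were. The summed level of the neuron markers ranged from 25373 TPM in D to 40146 TPM in B, and that of the glial markers from 1525 TPM in C to 4835 TPM in D. By TPM, 9 of the 10 glial markers were highest in D, as were 6 of the 14 neuron markers and 62.8% of all tested genes. Of the other lists, 4 of 7 erythroid markers were detected (396 TPM in D to 2743 TPM in B) and 4 of 6 sympathetic and chromaffin markers were (87.8 TPM in D to 279.9 TPM in B). Mesenchymal markers summed to 17.9 to 82.1 TPM, macrophage markers to 24.5 to 35.5 TPM and endothelial markers to 1.14 to 6.21 TPM. In such bulk samples, fewer cells of a type and less RNA per cell cannot be told apart.

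Motor genes were detected broadly in these cells. A total of 55 of the 74 genes reached 1 TPM in every library, against 28.7% of all genes in the tables and 50.2% of the protein-coding genes. By class, 21 of 23 dynein and dynactin genes and all 5 regulators passed this limit, and so did 29 of 46 kinesin genes. The share of all TPM held by the 74 genes together was 0.71% (B), 0.75% (C) and 0.65% (D) (mean 0.70 ± 0.05%, SD, n = 3). Dynein and dynactin genes contributed 4739 to 6125 TPM of this in each library, and kinesin genes 893 to 1458 TPM. Dync2h1, the heavy chain of the ciliary dynein 2, lay just inside the limit with a lowest value of 1.06 TPM in C, and Kif13b, a kinesin-3 vesicle motor, lay just outside with 0.863 TPM in C.

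Levels spanned 3 orders of magnitude on the plot of TPM by library, and the short dynein and dynactin subunits lay at the top. Dynlrb1, a roadblock light chain of dynein (chromosome 2, 155236533 to 155250277), stood at 1994 (B), 2040 (C) and 1203 TPM (D). Dctn3, the p24 subunit of dynactin's shoulder (chromosome 4, 41714798 to 41723170), stood at 776, 1414 and 365 TPM in B, C and D. Coordinates of genes are those of the deposited tables on mouse build GRCm38.p2. At the other end, 7 genes stayed under 1 TPM in every library: Dynlrb2, Dynlt1c, Kif17, Kif27, Kif12, Kif28 and Kif2b. Kif2b had no count in any library, which allows up to 0.148 TPM in B, 0.223 TPM in C and 0.173 TPM in D by the limit of 3 counts. Such limits cover counting error only, since amplified reads were not traced back to molecules.

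**Figure D1:**
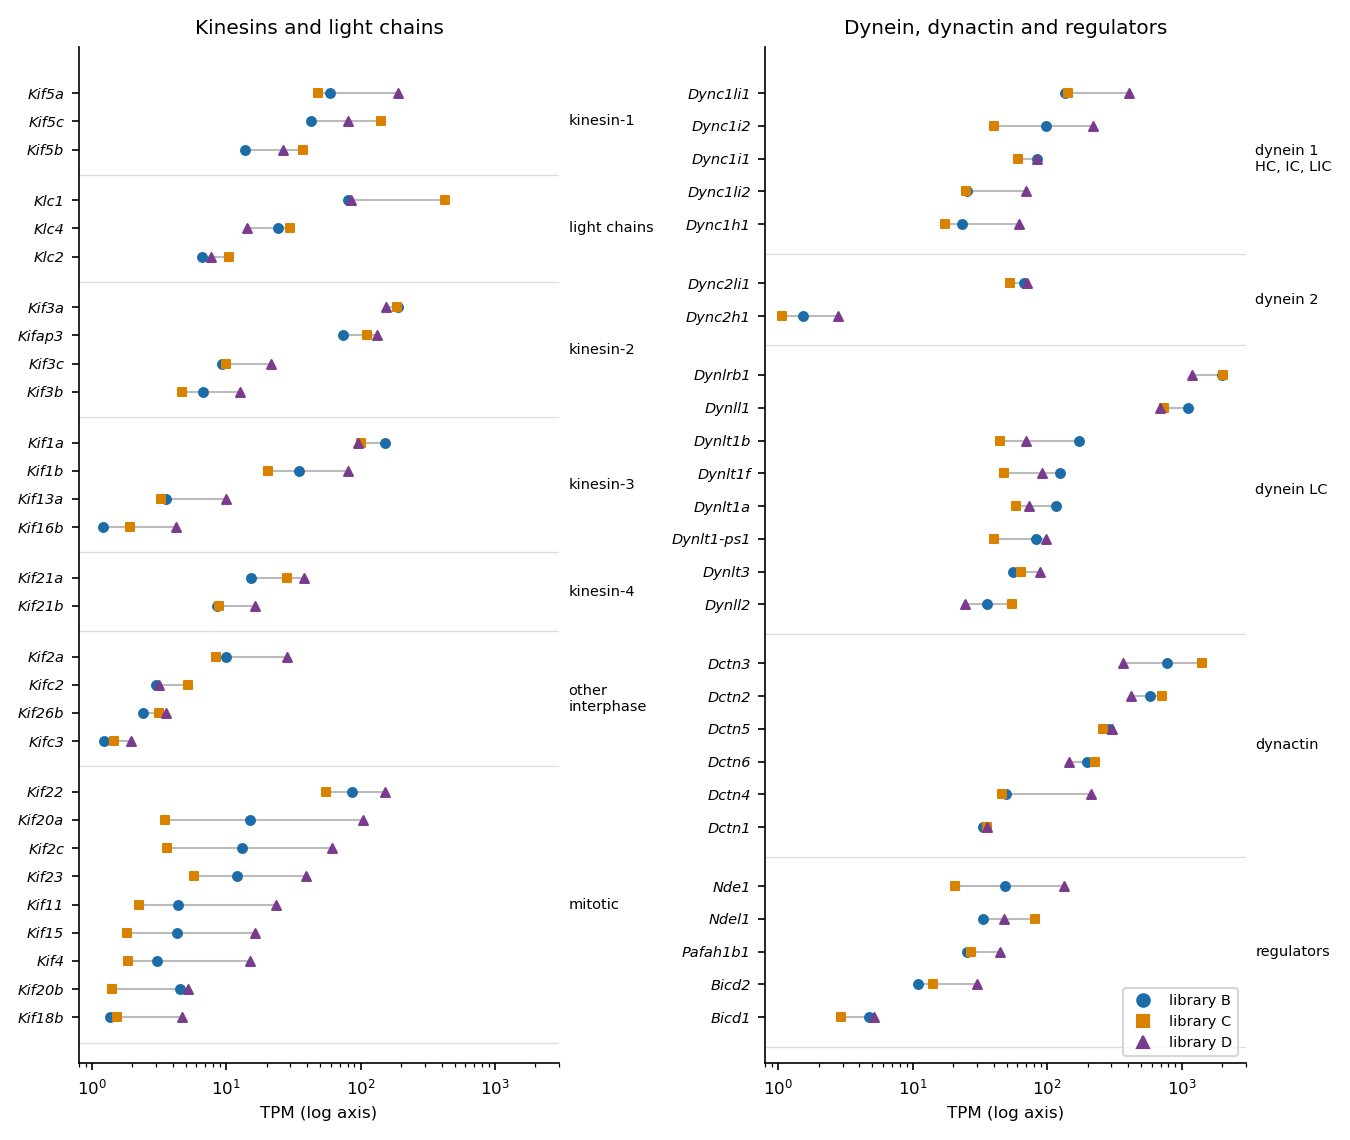
TPM (log axis) of the 55 motor genes that reached 1 TPM in each of the libraries, grouped by role; each point is 1 library and each grey line joins the lowest and the highest library. Dynlrb1, Dctn3 and Dynll1 lie furthest to the right, and in the mitotic group the point of library D is the highest in every row.

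Promoter sequences are shown for a few members, because the mitotic and the transport kinesins are set side by side in the results and a short cell cycle motif was counted in both. The motif is the cell cycle genes homology region (CHR), TTTGAA or TTCGAA on either strand, which is known as a binding element of the DREAM and B-MYB-MuvB complexes at genes expressed in late cell cycle. The second motif searched is CCAAT on either strand, the element of NF-Y, and neither motif contains the other. RefSeq windows on build GRCm38.p6, from 250 bases before to 50 bases after a transcript start, were matched by symbol for 56 of the 74 genes. The sequences below run 5′ to 3′ on the gene's strand from 120 bases before to 20 bases after the start, with CHR and CCAAT matches in capitals (a CHR on the other strand reads TTCAAA, and a CCAAT on the other strand reads ATTGG). The first 6 belong to spindle kinesins: Kif11 at chr19:37376262-37376401 (plus strand), Kif15 at chr9:122950961-122951100 (plus strand), Kif22 at chr7:127042401-127042540 (minus strand), Kif23 at chr9:61946780-61946919 (minus strand), Kif2c at chr4:117178753-117178892 (minus strand) and Kifc1 at chr17:33890614-33890753 (minus strand). The last 3 belong to transport kinesins: Kif3a at chr11:53567249-53567388 (plus strand), Kif5c at chr2:49619166-49619305 (plus strand) and Klc1 at chr12:111758748-111758887 (plus strand). The Kif2c stretch surrounds a start inside the gene, whose span in the deposited tables is 117159639 to 117182639.
Kif11: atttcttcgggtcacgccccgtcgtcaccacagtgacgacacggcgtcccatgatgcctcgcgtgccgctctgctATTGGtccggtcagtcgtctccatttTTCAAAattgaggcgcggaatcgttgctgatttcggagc
Kif15: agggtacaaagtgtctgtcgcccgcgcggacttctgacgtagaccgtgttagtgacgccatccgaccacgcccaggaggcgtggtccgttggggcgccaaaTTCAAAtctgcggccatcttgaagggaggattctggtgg
Kif22: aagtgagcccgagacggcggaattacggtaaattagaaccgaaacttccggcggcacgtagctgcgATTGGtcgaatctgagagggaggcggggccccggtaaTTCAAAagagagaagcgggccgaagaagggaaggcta
Kif23: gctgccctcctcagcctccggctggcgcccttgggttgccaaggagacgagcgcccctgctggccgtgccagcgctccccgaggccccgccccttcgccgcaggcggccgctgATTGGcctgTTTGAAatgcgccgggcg
Kif2c: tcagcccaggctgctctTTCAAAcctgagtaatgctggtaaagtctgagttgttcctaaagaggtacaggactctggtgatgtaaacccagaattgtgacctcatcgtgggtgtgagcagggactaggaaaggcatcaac
Kifc1: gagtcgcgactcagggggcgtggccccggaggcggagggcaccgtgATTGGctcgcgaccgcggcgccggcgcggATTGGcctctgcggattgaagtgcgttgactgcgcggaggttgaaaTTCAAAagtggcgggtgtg
Kif3a: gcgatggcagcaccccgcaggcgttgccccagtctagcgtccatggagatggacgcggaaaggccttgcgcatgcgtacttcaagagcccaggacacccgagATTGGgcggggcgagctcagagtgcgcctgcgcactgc
Kif5c: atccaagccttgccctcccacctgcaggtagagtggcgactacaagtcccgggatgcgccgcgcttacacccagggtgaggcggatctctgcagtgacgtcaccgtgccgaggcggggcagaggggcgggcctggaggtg
Klc1: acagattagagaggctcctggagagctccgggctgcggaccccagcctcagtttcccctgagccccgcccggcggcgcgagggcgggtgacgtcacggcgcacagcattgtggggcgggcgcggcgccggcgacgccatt

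A CHR lay in the window of 10 of the 11 mitotic kinesins that had one, the exception being Kif18a; Kif20a had no window. Among transport kinesins it lay in the window of 1 of 14 genes (Kif1a). Of the kinesin genes outside both lists, Kif24, Kif26b and Kif27 held a CHR. Kif12, Kif26a, Kif2a, Kif2b, Kif6, Kif7, Kif9 and Klc3 did not. Counted by gene, the same letters were found in 5854 of all 27025 genes with a window. Among genes detected in every library they were found in 1380 of 8815. Counted by window, these shares were 19.2% of all 32851 windows and 13.3% of the windows of detected genes. Of 17 other cell cycle genes with a window, 12 held a CHR, as did 2 of 15 dynein and dynactin genes (Dctn1 and Dctn3). In Kif11 and Kif15 the match covered the bases from 19 to 14 before the start, and in Kif22 those from 17 to 12 before it. CCAAT lay in the windows of 7 of 11 mitotic and 5 of 14 transport kinesins, against 11096 of all 27025 genes with a window (37.4% of all windows). Some windows belong to starts inside the gene's span in the deposited tables. That of Kif2c (117178723 to 117179022) lies within 117159639 to 117182639, and that of Kif1a (93082431 to 93082730) within 93015464 to 93101951. Those of Kif14 and Kif4 also lie inside the gene. A match is a string of letters and not a measured binding site, and these counts carry no test.

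The kinesin-1 heavy chains, the main outward motors of axons, were led by a different gene in library C than in B and D. Kif5a, the neuronal heavy chain (chromosome 10, 127225696 to 127263363, minus strand), stood at 59.3 (B), 48.1 (C) and 191 TPM (D). Kif5c, also largely neuronal (chromosome 2, 49619298 to 49774778, plus strand), stood at 42.6 (B), 141 (C) and 81.0 TPM (D). The ubiquitous Kif5b was the lowest of these heavy chains in every library, at 13.9, 37.5 and 26.4 TPM. Thus Kif5a held 51.2% of the kinesin-1 heavy chain TPM in B and 64.0% in D but 21.2% in C, where Kif5c held 62.2%. Within libraries, the log2 ratio of Kif5c to Kif5b was nearly constant (1.61, 1.91 and 1.61, mean 1.71 ± 0.17 SD), whereas that of Kif5a to Kif5b ranged from 0.36 in C to 2.85 in D (mean 1.76 ± 1.28).

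Kinesin light chains join the kinesin-1 heavy chains to cargo, and Klc1 was the leading one throughout. Klc1 (chromosome 12, 111758849 to 111807844, plus strand) stood at 80.7 (B), 427 (C) and 85.2 TPM (D), so that library C lay 5.29-fold above the lowest library. Its share of light chain TPM was 72.3% (B), 91.1% (C) and 79.5% (D). Klc2 was lower in each library (6.65, 10.4 and 7.66 TPM), a log2 ratio of Klc1 to Klc2 of 4.13 ± 1.06 (SD, n = 3). Klc4 ranged from 14.2 TPM in D to 30.0 TPM in C. All 4 light chains were highest in C, as were 21% of all tested genes, including Klc3 at 0.169, 1.21 and 0.050 TPM, which rests on 4, 19 and 1 counts and shares 28.4% of its exon bases with Ercc2.

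**Figure D2:**
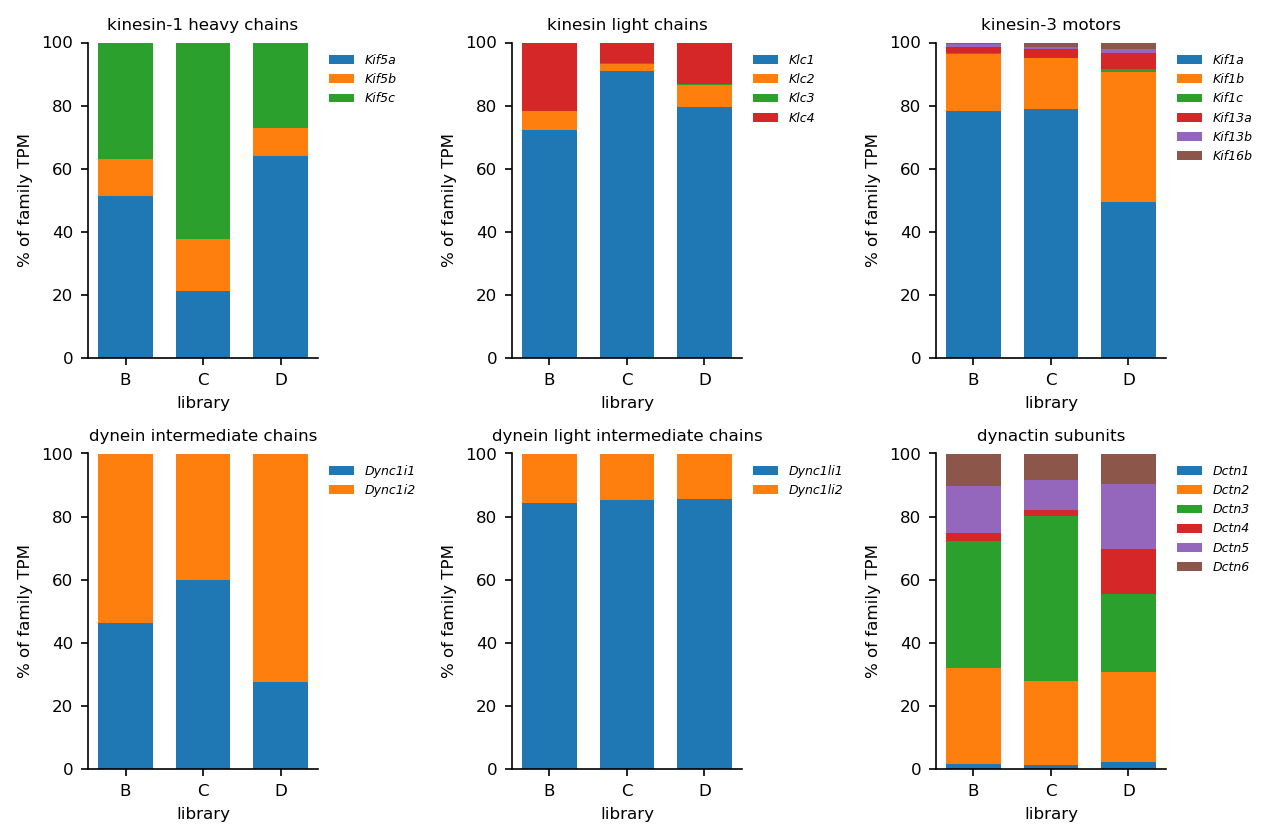
Stacked bars give each gene's percentage of its family's summed TPM in libraries B, C and D, for 6 families of motor subunits. Kif5c is the largest part of the kinesin-1 bar in C and Kif5a in B and D, while the Dync1li1 bar reaches 84.4% to 85.5% in all 3 libraries.

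Kinesin-2, a heterotrimer that moves vesicles in axons and builds cilia, was led by the motor subunit Kif3a and the adaptor subunit Kifap3. Kif3a (chromosome 11, 53567379 to 53601967, plus strand) was among the steadiest members by TPM, at 189 (B), 187 (C) and 154 TPM (D). On that scale the median tested gene lay 0.71 (log2) higher in D than in the others. Kifap3 stood at 74.5, 112 and 132 TPM. The partner motors were far lower: Kif3c at 9.23, 9.93 and 21.6 TPM and Kif3b at 6.73, 4.68 and 12.6 TPM. Kif3c exceeded Kif3b in each library (log2 ratio 0.76 ± 0.31, SD, n = 3), but 38.2% of its exon bases are shared with 1110002L01Rik, and without strand those reads cannot be told apart. Kif17, a homodimeric kinesin-2, stayed at 0.146 to 0.680 TPM.

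Among the kinesin-3 and kinesin-4 motors, the synaptic vesicle precursor motor Kif1a was the most abundant. Kif1a (chromosome 1, 93015464 to 93101951, minus strand) stood at 151 (B), 101 (C) and 96.3 TPM (D), and Kif1b, which also carries mitochondria in one of its forms, at 34.6, 20.3 and 80.1 TPM. By TPM Kif1a was the higher one in each library, but the log2 ratio was 0.27 in D against 2.13 in B and 2.30 in C. That order in D depends on division by length, since by counts Kif1b was higher there (10875 against 6927). Kif13a and Kif16b, motors of endosomes, ranged from 3.25 to 9.96 TPM and from 1.20 to 4.20 TPM, and Kif1c from 0.298 to 1.80 TPM. Kif21a, a kinesin-4 that slows microtubule growth, stood at 15.4, 28.3 and 37.7 TPM and exceeded its relative Kif21b (8.55, 8.77 and 16.3 TPM) in all 3 libraries. Kif7 and Kif27, linked to Hedgehog signalling and motile cilia, stayed at 0.437 to 2.27 TPM and 0.174 to 0.233 TPM. Of the other interphase kinesins, Kif2a, a microtubule depolymerase of growing axons, led with 10.0, 8.40 and 28.2 TPM (17.4% of its exon bases are shared with Dimt1), followed by Kifc2 (3.00, 5.20 and 3.14 TPM), Kif26b (2.38 to 3.57 TPM) and Kif26a (0.433, 0.169 and 4.22 TPM).

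The core of cytoplasmic dynein 1 was detected in full. Dync1h1, the heavy chain that holds the motor (chromosome 12, 110601452 to 110666945, plus strand), stood at 23.1 (B), 17.4 (C) and 61.6 TPM (D). Dync1li1, a light intermediate chain that binds cargo adaptors, stood at 136, 142 and 407 TPM, and its relative Dync1li2 at 25.3, 24.9 and 69.2 TPM. Both were near-equal in B and C and higher in D, and Dync1li1 held 84.4%, 85.1% and 85.5% of their sum. This log2 ratio, 2.50 ± 0.065 (SD, n = 3), had the smallest spread of the 12 pairs compared. The intermediate chains showed no such steady order: the neuronal Dync1i1 stood at 83.9, 60.3 and 83.4 TPM and the ubiquitous Dync1i2 at 97.3, 40.4 and 220 TPM, with Dync1i2 higher in B and D and Dync1i1 higher in C. Their log2 ratio of -0.34 ± 0.99 did not exceed its spread.

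Within the LC8 and the roadblock pair of dynein light chains, a single paralog led in all 3 libraries. Dynll1, the LC8 light chain that also serves many proteins outside dynein, stood at 1113 (B), 740 (C) and 686 TPM (D), against 35.7, 54.6 and 24.4 TPM for Dynll2. Dynlrb1 was accompanied by almost no Dynlrb2, which had 4, 0 and 1 counts. With Dynlrb2 held at the limit of 3 counts of a library, Dynlrb1 was at least 2023-fold higher in library C, where Dynlrb2 had no count. By the measured values it was 2229-fold higher in B (95% exact binomial interval 871 to 8183) and 4600-fold higher in D, where the single Dynlrb2 count gives an interval of 825 to 181697. Dynlt3, a Tctex-type light chain, stood at 56.1, 63.5 and 88.0 TPM. The tables list Dynlt1a, Dynlt1b, Dynlt1f and the pseudogene Dynlt1-ps1 at 40.5 to 172 TPM each, but these are near-identical copies and the division of reads among them is uncertain.

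Dynactin subunits ranged widely in level, although they belong to a single complex. Dctn1, the p150Glued subunit that binds dynein and microtubules (chromosome 6, 83165920 to 83200117, plus strand), was by TPM the steadiest detected motor gene, at 33.3 (B), 35.7 (C) and 35.5 TPM (D) (34.9 ± 1.35 TPM, SD, n = 3). Dctn5, of the pointed-end complex, was next at 291, 258 and 305 TPM. Dctn2, dynamitin, stood at 582, 714 and 424 TPM, and Dctn6 at 197, 227 and 146 TPM. In contrast, Dctn4 stood at 49.3 TPM in B and 45.8 in C but 214 in D. Relative to Dync1h1, the level of Dctn2 was 25.1-fold (B), 41.0-fold (C) and 6.88-fold (D), and that of Dctn1 1.44, 2.05 and 0.577-fold.

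All 5 regulators and adaptors were detected, at levels far below those of Dynlrb1 and Dynll1. Pafah1b1, which encodes LIS1, stood at 25.3 (B), 27.1 (C) and 44.2 TPM (D). Its partners Ndel1 and Nde1 changed order: Ndel1 stood at 33.2, 81.8 and 47.4 TPM, and Nde1, the form known from dividing progenitors, at 48.7, 20.7 and 132 TPM. Nde1 was higher in B and D and Ndel1 in C, and the log2 ratio of -0.02 ± 1.79 did not exceed its spread. Of the adaptors, Bicd2 (10.9, 14.1 and 30.0 TPM) exceeded Bicd1 (4.70, 2.90 and 5.14 TPM) in each library.

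By TPM, 10 of the 12 paralog pairs kept their order in all 3 libraries with a mean log2 ratio beyond its SD, as the plot of paralog ratios shows. By counts, without division by length, Kif1b exceeded Kif1a in D. An exact two-sided sign-flip test over 3 libraries cannot give a p below 0.25, and these 10 pairs gave that value (0.3 after Benjamini-Hochberg adjustment over the 12). The Dync1i1 and Dync1i2 pair gave p = 0.75 (adjusted 0.818) and the Ndel1 and Nde1 pair p = 1 in the same exact test.

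**Figure D3:**
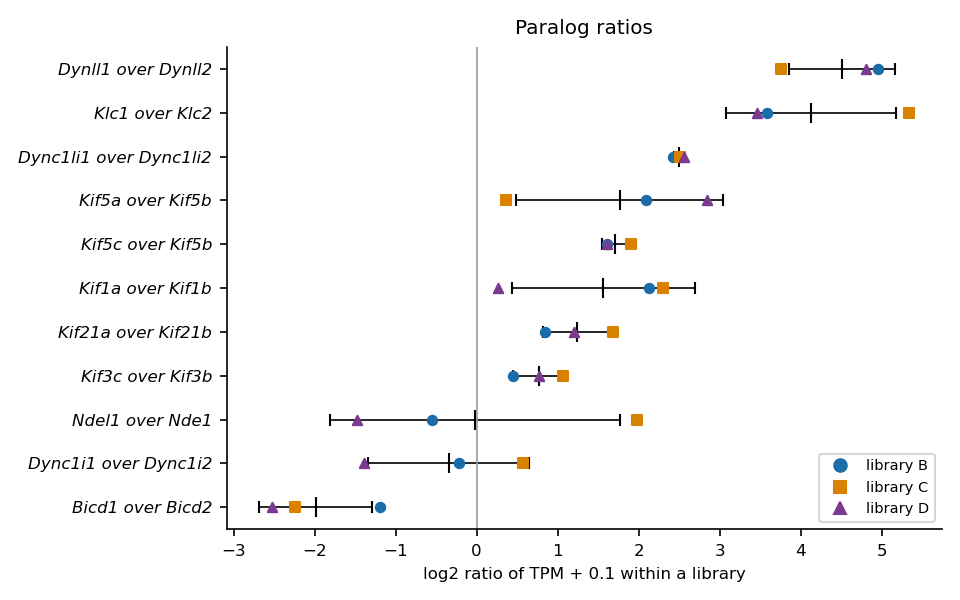
Log2 ratio of TPM + 0.1 between the 2 genes of a pair within each library; points are libraries B, C and D, the tick is the mean and the bar 1 SD. Dync1li1 over Dync1li2 has the narrowest bar, and the bars of Ndel1 over Nde1 and Dync1i1 over Dync1i2 cross 0; the Dynlrb pair is left out because Dynlrb2 had no count in C.

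The mitotic kinesins, which act on the spindle and in cytokinesis, were highest in library D and, with 1 exception, lowest in library C. By TPM all 12 had their maximum in D, where 62.8% of all tested genes were also highest, and 11 of 12 were lowest in C, where 47.2% of all tested genes were; Kif18b was lowest in B. Kif20a, which drives cytokinesis, stood at 15.1 (B), 3.47 (C) and 105 TPM (D), a 30.2-fold range that was the widest of the detected members. Of its exon bases, 33.2% are shared with Cdc23. Kif2c, the centromere depolymerase, stood at 13.1, 3.63 and 61.4 TPM, and Kif11, which pushes spindle poles apart, at 4.39, 2.25 and 23.5 TPM. The 3 libraries thus kept the same order, D above B above C, for these genes. Kif23, a component of centralspindlin, followed with 11.9, 5.75 and 38.9 TPM. Kif22, a chromosome arm motor, was the most abundant mitotic kinesin and had a narrower range, with 85.6, 54.8 and 152 TPM. The remaining 7 had mean levels of 1.01 TPM (Kif18a) to 7.53 TPM (Kif15), and 3 of them (Kifc1, Kif14 and Kif18a) were under 1 TPM in at least one library.

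As a group, mitotic kinesins had a median of 4.34 (B), 1.84 (C) and 15.7 TPM (D). Their share of all kinesin TPM was 16.4% (B), 6.11% (C) and 29.6% (D). The 19 transport kinesins, a list without Klc3, had medians of 13.9, 20.3 and 21.6 TPM in the same libraries. On the log2 scale, the median of the mitotic list minus that of the transport list was -1.65 (B), -3.39 (C) and -0.46 (D), so the mitotic list was lower in each (mean -1.83 ± 1.48, SD, n = 3; exact sign-flip p = 0.25, the lowest possible here). Of 20 other cell cycle genes, 16 were highest in D and 18 lowest in C by TPM, beside 62.8% and 47.2% of all tested genes. In the log2 ratios of D described below, their median was 0.45 with 13 of 20 above 0. That of the mitotic kinesins was 1.83 with 12 of 12 above 0. In C the medians were -1.12, with 18 of 20 below 0, and -1.75, with 12 of 12 below 0. The summed level of the 20 cell cycle genes was 711 (B), 431 (C) and 1417 TPM (D). The glial markers had the same order of sums, 3065, 1525 and 4835 TPM. The part of glial or of dividing cells in the levels of mitotic kinesins was not tested.

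**Figure D4:**
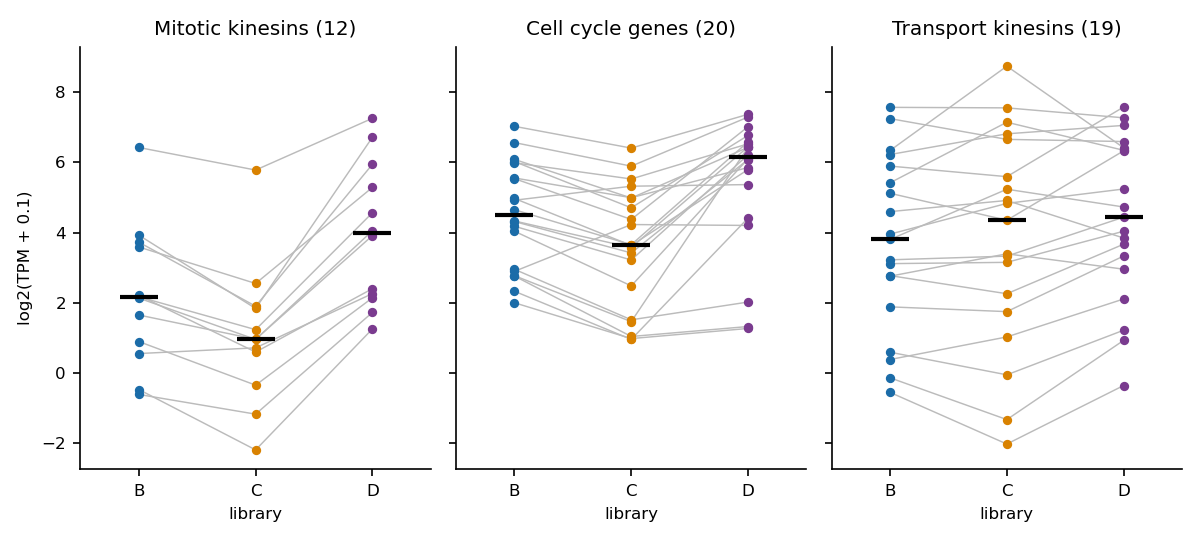
Each point is 1 gene's log2(TPM + 0.1) in library B, C or D, grey lines follow a gene across libraries and black bars are list medians, for 12 mitotic kinesins, 20 other cell cycle genes and 19 transport kinesins. The medians of the first 2 lists dip in C and are highest in D, while that of the transport kinesins is 13.9 to 21.6 TPM.

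To see which motor genes differed beyond the spread between pools, each library was set against the other 2 over all 15727 genes that passed the count filter, 69 of the 74 motor genes among them. The fit, edgeR's quasi-likelihood test with Benjamini-Hochberg adjustment, has 1 residual degree of freedom and compares libraries, not conditions; the labels separate these libraries only by their pools of embryos and ganglia. At an adjusted p of 0.05 it called 0 of the 69 motor genes in library B, 0 in C and 0 in D, against 0%, 0.782% and 0% of all tested genes. The smallest adjusted p of a motor gene was 1.0 (B), 0.126 (C) and 0.191 (D). At an unadjusted p of 0.05, the motor genes that passed numbered 0 (B), 7 (C) and 19 (D), against 1.11%, 6.91% and 19.4% of all genes. DESeq2 called 0 in B, 2 in C (Kif20a and Klc1) and 3 in D (Dctn3, Kif20a and Kif26a), against 0.00636%, 1.13% and 4.53% of all genes. Without the count filter edgeR called 11 in D (6.51% of the genes then tested). Spread between the pools, as edgeR's biological coefficient of variation, had a median of 0.50 among motor genes and 0.49 among all.

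Although none was called, the ratios of library D differed in direction between classes of motor genes. Each library is part of the reference for the others, so the ratios of B, C and D are not separate results. In B, 9 of 12 mitotic kinesins were below 0 (median -0.62, against -0.18 over all tested genes). Mitotic kinesins had a median log2 ratio of 1.83 in D (0.12 to 2.82), and 12 of 12 were above 0, as were 49.5% of all tested genes; 7 had an unadjusted p under 0.05, against 11.2% of all genes on the higher side. In C, 12 of 12 were below 0 (median -1.75), against 54.6% of all genes, and 4 had an unadjusted p under 0.05, against 2.69% on the lower side. Dynein light chains went the other way in D: all 9 tested, the pseudogene Dynlt1-ps1 (-0.017) among them, were below 0 (median -0.95), against 50.5% of all genes, and 3 of the 9 (Dynll1, Dynll2 and Dynlrb1) had an unadjusted p under 0.05, against 8.22% on the lower side. Of the 6 dynactin subunits 5 were below 0, led by Dctn3 at -2.30 ± 0.57 (SE; adjusted p = 0.191 in edgeR's quasi-likelihood test), and Dctn4 alone was above, at 1.47 ± 0.40 (adjusted p = 0.200). The 9 light chain entries are not independent genes. Dynlt1a, Dynlt1b, Dynlt1f and Dynlt1-ps1 are near-identical copies among which the division of reads is uncertain, and Dynlt1c is a further Dynlt1 entry. Of the 5 dynein 1 heavy, intermediate and light intermediate chains 4 were above 0 (median 0.84), the exception being Dync1i1. Kif26a, an unusual kinesin without ATPase activity, had the largest positive ratio of a motor gene in D, 3.09 ± 0.73 (adjusted p = 0.191 in edgeR), from 27, 7 and 225 counts.

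These ratios moved with gene length, as the plot of log2 ratio against length shows. Across 13703 coding genes the rank correlation of the D ratio with length was 0.47, and across 68 motor genes it was 0.46. With transcript GC it was -0.36 and -0.22. Over the coding genes the correlation with length was -0.30 for the B ratio and -0.28 for the C ratio. Genes share these libraries and are not independent replicates. Gene lengths were 2063 to 10211 bases among mitotic kinesins and 342 (Dynlt1-ps1) to 3777 bases among the 9 tested dynein light chains, so the ratios were recomputed with a smooth trend in length and transcript GC removed. The median of the mitotic kinesins in D was then 1.25, with 11 of 12 above 0 (48.3% of all genes) and Kif20b at -0.61, and in C it was -1.39 with 12 of 12 below 0 (53.1%). Those with an unadjusted p under 0.05 then numbered 4 in place of 7 in D, against 7.42% of all genes on the higher side, and 6 in place of 4 in C, against 4.94% on the lower side. The median of the dynein light chains in D was -0.46 with 8 of 9 below 0 (51.7%), Dynlt1f barely so at -0.0012, and Dynlt1-ps1 above it at 0.47. Here too the Dynlt1 copies are counted as separate entries. Only Dynll1 of the 9 then had an unadjusted p under 0.05, against 5.88% of all genes on the lower side, and Dynlrb1, whose gene length is 1009 bases, moved from -1.45 to -0.10. The median of the 5 dynein 1 heavy, intermediate and light intermediate chains in D dropped to 0.29, with 4 of 5 above 0. Dctn3 moved from -2.30 to -1.21, while Dctn6 stayed at -1.31 after -1.25 and Dctn2 at -1.04 after -1.32.

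**Figure D5:**
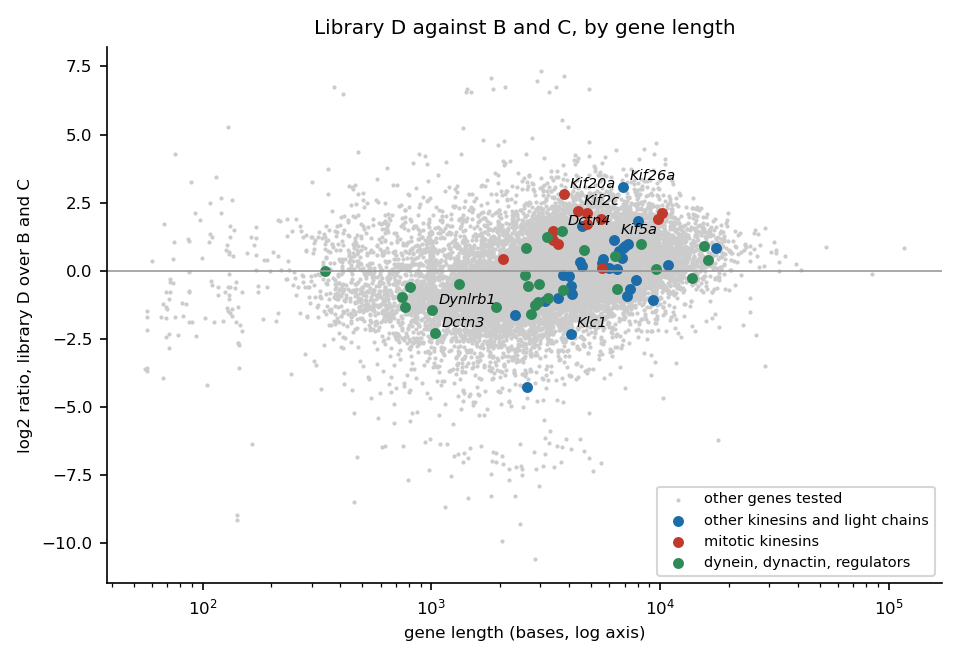
Log2 ratio of library D over B and C (edgeR) against gene length in bases (log axis); grey points are other tested genes and coloured points the 69 tested motor genes by class. Mitotic kinesins lie above 0, and the short dynein and dynactin genes at the left, Dynlrb1 and Dctn3 among them, lie below it.

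In library C the largest positive ratios among motor genes belonged to Klc3, which rests on few counts, and Klc1. The log2 ratio of Klc1 was 2.76 ± 0.96 (SE), with an adjusted p of 0.225 in edgeR's quasi-likelihood test. Once the trend in length and GC was removed, the ratio was 2.66 and the adjusted p 0.0135, and edgeR then called 3 motor genes in C: Klc1 higher, and Kif20a (-3.18) and Kif26a (-3.88) lower, against 1.96% of all genes. Kif5c and Kif5b lay in the same direction as Klc1 in C, at 1.68 ± 0.94 (adjusted p = 0.799) and 1.39 ± 0.88 (adjusted p = 0.860), and Kif5a did not, at -0.81 ± 1.00 (adjusted p = 1.0). Over all 69 motor genes the median log2 ratio was -0.17 (B), -0.38 (C) and 0.12 (D), beside -0.18, -0.11 and -0.02 over all tested genes. After removal of the trend the median in D was -0.10, and so it changed sign.

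Genes that work with the motors were also detected widely, beside 50.2% of the protein-coding genes at 1 TPM in every library. Of 37 genes of cargo adaptors and associated subunits outside the rule, 35 reached 1 TPM in every library, led by Capzb, which caps the dynactin filament (355, 518 and 328 TPM), the synaptic vesicle GTPase Rab3a (195, 572 and 114 TPM) and Actr10, the dynactin subunit Arp11 (239, 236 and 332 TPM). Of 18 genes of intraflagellar transport, the ciliary route driven by kinesin-2 and dynein 2, 17 did, led by Ift22 (268, 210 and 171 TPM). By contrast, 2 of 18 axonemal dynein genes did, and Dnaic2, an intermediate chain of motile cilia, was the highest of them at 3.81 (B), 2.12 (C) and 21.3 TPM (D). At an adjusted p of 0.05, edgeR's quasi-likelihood test called 0 of the 36 tested adaptor genes, 0 of the 18 intraflagellar transport genes and 0 of the 12 tested axonemal dyneins in B, C or D. At an unadjusted p of 0.05 in D, 8 adaptors passed (4 higher and 4 lower), as did 5 intraflagellar transport genes (4 higher and 1 lower) and 2 axonemal dyneins (1 in each direction), beside 19.4% of all tested genes (11.2% higher and 8.22% lower). DESeq2 called the adaptor Fez2 in C (log2 ratio 2.85), where it called 1.13% of all genes, and Capza1 (1.97) and Rab3a (-2.51) in D, where it called 4.53%. Without the count filter edgeR called, in D, the adaptors Capza1 (2.06), Fez2 (-2.0), Rab3a (-2.42) and Rilp (-4.20), the intraflagellar transport gene Ift122 (1.85) and the axonemal Dnaic2 (2.19), beside 6.51% of the genes then tested. With the trend in length and GC removed it called Fez2 in C (2.74), beside 1.96% of all genes. Multiciliated cell markers summed to 17.0 to 22.1 TPM.

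The levels of the motor genes varied between libraries about as much as those of other genes. Among the 55 detected members the median SD of log2(TPM + 0.1) over libraries was 0.71, and among all 11896 detected genes it was 0.64. Dctn1, Dctn5, Kif3a, Dync2li1 and Dync1i1 had the smallest SDs (0.06 to 0.27), and the 5 largest belonged to the mitotic kinesins Kif4, Kif15, Kif11, Kif2c and Kif20a (1.54 to 2.45). These SDs are of TPM, a scale on which the median tested gene lay 0.71 (log2) higher in D than in the others. In edgeR's TMM-scaled log2 ratios of D, the steadiest members were below 0: Dctn1 at -0.66, Dctn5 at -0.55, Kif3a at -0.99, Dync2li1 at -0.47 and Dync1i1 at -0.49. Of the 55, 6 members differed by less than 1.5-fold between their highest and lowest library (17.4% of all detected genes), and 10 by more than 4-fold (21.8%). Dync2li1, a light intermediate chain of dynein 2, stood at 67.4 (B), 52.9 (C) and 70.3 TPM (D).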

How the data were processed

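RNA of EGFP-sorted embryonic DRG cells was measured in 3 pooled libraries made with a low-input cDNA kit that does not mark strand, per the labels' protocols. The authors deposited raw counts, CPM and RPKM per gene, 1 table per library. In the deposited tables CPM equals count over the table's total, and RPKM equals CPM over length in kilobases; both were checked, and only the counts and lengths were used. Subread, featureCounts 1.4.5 and build GRCm38.p2 appear, without roles, in the submitters' processing notes; no source used here gives filters, strand setting or annotation release. Symbols were known for 40254 genes.

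TPM came from counts and lengths, with a pseudocount of 0.1 on the log2 scale. Ratios of genes were taken within each library and tested by an exact two-sided sign-flip test. Each library was set against the other 2 with edgeR 4.0.16 in R 4.3.3 (TMM scaling, filterByExpr, quasi-likelihood test, Benjamini-Hochberg adjustment with a threshold of 0.05); SEs are approximate, from the ratio and its F statistic. The lone library is assumed to vary as the others do. P-values compare these pools and test no condition. DESeq2 1.42.0, its size factors, no filter, other limits and pseudocounts, CPM without length, single libraries left out and an mgcv 1.9.3 offset for length and GC (longest GENCODE transcript, mean count 10 or more) were alternatives. The edgeR script was tested on simulated data with less spread than these pools, which does not show its power here. Reads of the 19 members that share exon bases with another gene (8 of them over 10% of their bases) cannot be assigned with certainty. All members may be named; values per library went to members of the 12 pairs, the 4 most abundant genes of each role, the 5 steadiest and the 5 most variable members, and further ones were added after their values were seen. The members and lists were chosen with earlier results of these data known.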

Additional observations from a re-analysis of the deposited data

How the results depend on the processing

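An alternative value counted as keeping its size within set tolerances. These were the SD over libraries for a ratio within libraries, 1.5-fold for a count and 0.1 (log2) for a median ratio. Leaving 1 library out cannot move a mean over 3 libraries by as much as that SD. Such values of a ratio within libraries could therefore change sign but could not count as moved, whatever the data. Of 101 alternative values, 82 kept their direction, call and size, 13 moved and 6 changed sign. Of these 6, 4 belong to the pairs whose mean did not exceed its SD and moved by less than that SD: Dync1i1 over Dync1i2 at 0.18 without D, and Ndel1 over Nde1 at 0.25 without B, 0.71 without D and 0.0043 by CPM. Without division by length (CPM), log2 ratios were 0.51 for Kif21a over Kif21b, -1.82 for Dync1i1 over Dync1i2, 1.67 for Dync1li1 over Dync1li2 and -0.90 for Bicd1 over Bicd2. That of Kif1a over Kif1b was 0.65 by CPM in place of 1.57, a shift within its SD. With a pseudocount of 1, Dynlrb1 over Dynlrb2 was 10.3, because the larger pseudocount replaces the few Dynlrb2 counts. Once the trend in length and GC was removed, the motor genes had median log2 ratios of -0.069 (B), -0.20 (C) and -0.10 (D), the last with its sign changed, and 3 motor genes were called in C. DESeq2 called 2 in C and 3 in D, and without a count filter edgeR called 11 in D (Dctn3, Dctn4, Dynlrb1, Kif11, Kif14, Kif15, Kif20a, Kif26a, Kif2c, Kif4 and Klc1), against 6.51% of all 23553 genes then tested. The cause of these changes was not tested. Leaving out one library gave medians, with no test because no residual degree of freedom was left, of -0.17 (without C) to 0.25 (without D) for B, -0.37 (without B) to -0.25 (without D) for C and 0.17 (without C) to 0.37 (without B) for D. The motor genes detected numbered 40 with a limit of 5 TPM and 58 with 0.5 TPM, against 55 with 1 TPM, and these counted as kept in size. Chosen after seeing the data, counts by CPM with and without TMM scaling put 11 of 12 mitotic kinesins highest in D, and 11 of 12 lower in C than in B with D left out. On the TPM scale the median tested gene lay 0.71 (log2) higher in D than in the others, and 0.04 higher after TMM scaling. Relative to the median of all tested genes, 12 of 12 mitotic kinesins were above it in D on both scales. Within a gene these scales differ only by a constant per library, which the median takes out. The second scale therefore had to give the same count and is no separate support. Depth limits the members at few counts, such as Dynlrb2, Klc3, Kif12, Kif28 and Kif2b. No paired analysis was possible because the libraries form 1 group.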
